A study of Mus musculus with 12 samples.

Results

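Cytosolic ribosomal protein genes were examined in mouse liver as 90 entries of a table of 19852 genes. They were chosen by name: identifiers that start with Rpl or Rps and a digit, or with Rplp0 to Rplp2, leaving out the Rps6k kinases. Of these entries, 63 were single genes, 6 were repeated names (such as Rpl41 and Rpl41.1), 7 joined a ribosomal protein gene with a small RNA or another transcript inside it, 7 were paralogs or copies of a ribosomal protein gene, and 6 were pseudogenes. The last entry, Rps19bp1, encodes a protein that binds Rps19 and is not part of the ribosome. Ribosomal protein genes that the rule by name missed include Rpsa, Fau, Gnb2l1 (Rack1), Arbp (Rplp0) and the joined entries Ikzf4andRps26 and Npas2andRpl31, which are described apart from the members.

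The RNA came from whole livers of C57BL/6 mice aged 20 weeks, in 4 groups with 3 libraries each: female WT, female ARE-Del, male WT and male ARE-Del. WT mice were littermate controls. ARE-Del mice lack the AU-rich element in the 3′ untranslated region of the interferon-gamma gene Ifng, an element that destabilises the mRNA, and serve as a model of chronic interferon-gamma expression; the protocol writes the genotype as ARE-Del-/-. The labels do not name the cells that make interferon-gamma, and nothing in them ties libraries to separate litters or batches, so p-values measure the spread between these libraries.

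Each ribosome has a large and a small subunit, and its proteins are needed in near-equal amounts. Ribosomal protein mRNAs are among the most abundant in a cell and typically start with an unbroken stretch of C and T, the 5′ terminal oligopyrimidine tract, through which mTOR signalling controls their translation. In liver, ribosome content follows feeding, growth and regeneration. A few ribosomal proteins have paralogs, such as Rps27l beside Rps27, which can take the same place in the ribosome.

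Values were RPKM, read counts adjusted for the length of the transcript and the size of the library. Ifng was listed at 0 to 0.0382 RPKM in the 6 WT libraries and at 0.0742 to 0.238 in the 6 ARE-Del libraries, which did not overlap. Read totals were not used here, and relative depth estimated from low values ran from 0.909 to 1.45 times that of female WT 1. Summed RPKM was 173476 to 208647, and the 12 listed hepatocyte markers summed to 27200 to 50500 RPKM. Library female ARE-Del 2 stood apart in Xist, the non-coding RNA of X inactivation: it had 0.0456 RPKM against 33.0 to 45.6 in the other 5 female libraries, with Ddx3y, a Y-linked gene, at 0 in all 6. Library female WT 2 stood apart in the ribosomal protein entries themselves, as described below. Where a call of a named gene between female WT and ARE-Del livers was lost without either library, that is said beside it.

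The bases around the annotated transcription start were searched for a pyrimidine stretch. RefSeq promoters (GRCm38.p6) were matched by symbol for 58 of the 81 entries that passed the filter on low values. Shown are 30 bases on the transcript's strand, 15 before and 15 from the annotated start, for 3 genes that rose in ARE-Del females (Rps12, Rps15a, Rplp2), for Rps27 and Rps27l, whose balance differed between the groups, and for the paralogs Rpl36al, Rpl22l1 and Rpl7l1. Capitals mark the longest run of C and T.
Rps12: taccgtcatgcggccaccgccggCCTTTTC
Rps15a: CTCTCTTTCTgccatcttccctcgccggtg
Rplp2: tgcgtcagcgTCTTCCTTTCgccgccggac
Rps27: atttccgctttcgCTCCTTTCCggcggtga
Rps27l: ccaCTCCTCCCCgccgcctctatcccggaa
Rpl36al: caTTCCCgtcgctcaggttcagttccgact
Rpl22l1: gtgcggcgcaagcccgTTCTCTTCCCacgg
Rpl7l1: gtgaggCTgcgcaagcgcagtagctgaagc

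These windows lie at chr10:23787195-23787224 (Rps12, minus strand), chr7:118116133-118116162 (Rps15a, minus), chr7:141447636-141447665 (Rplp2, plus), chr3:90213634-90213663 (Rps27, minus), chr9:66946071-66946100 (Rps27l, plus), chr12:69184053-69184082 (Rpl36al, minus), chr3:28805493-28805522 (Rpl22l1, plus) and chr17:46782642-46782671 (Rpl7l1, minus). The longest run had 10 bases in Rps15a, Rplp2 and Rpl22l1, 9 in Rps27 and Rps27l, 7 in Rps12, 5 in Rpl36al and 2 in Rpl7l1. Those of Rps15a and Rps12 reach an edge of the window, so the full runs may be longer. Over the 53 matched ribosomal protein genes without paralogs, the median longest run was 6 bases and 26 genes (49.1%) had a run of at least 7. Among 8017 tested genes with a promoter, 17.9% did, and among all 32851 promoters 18.6%. For runs of A and G, the same search on the other strand, the shares were 5.66% of the ribosomal protein genes and 17.8% of tested genes. In Rplp2 and Rps27 the run spans the annotated start, and in Rpl22l1 it begins just after it. It lies before the start in Rps15a, Rps27l, Rpl36al and Rpl7l1, and further inside the transcript in Rps12. The counts take a run anywhere in the window, so they do not measure tracts at the start itself. The windows rest on annotated starts, not on starts measured in these livers.

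Ribosomal protein mRNAs were abundant in every library. Over the 75 entries for ribosomal proteins that passed the filter, paralogs left out, the median of the mean levels was 40.4 RPKM with quartiles of 25 and 53.6, and 62 entries lay above 20 RPKM. The highest means belonged to Rpl41 (212 RPKM), which encodes a very short peptide of the large subunit, Rplp1 (157), Rps2andSnora64 (155), Rpl10andSnora70 (149) and Rps16 (129.5 RPKM). Only 4 entries lay below 5 RPKM, the lowest being Rpl19.1 at 0.692 and Rpl12 at 0.787. Rpl41.1, the second entry for Rpl41, had 2.92 RPKM. How reads that fit several near-identical copies were counted, and whether strand was used, is not given in the sources used here, so levels of repeated names, joined entries, paralogs and genes with many pseudogene copies are uncertain.

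**Figure D1:**
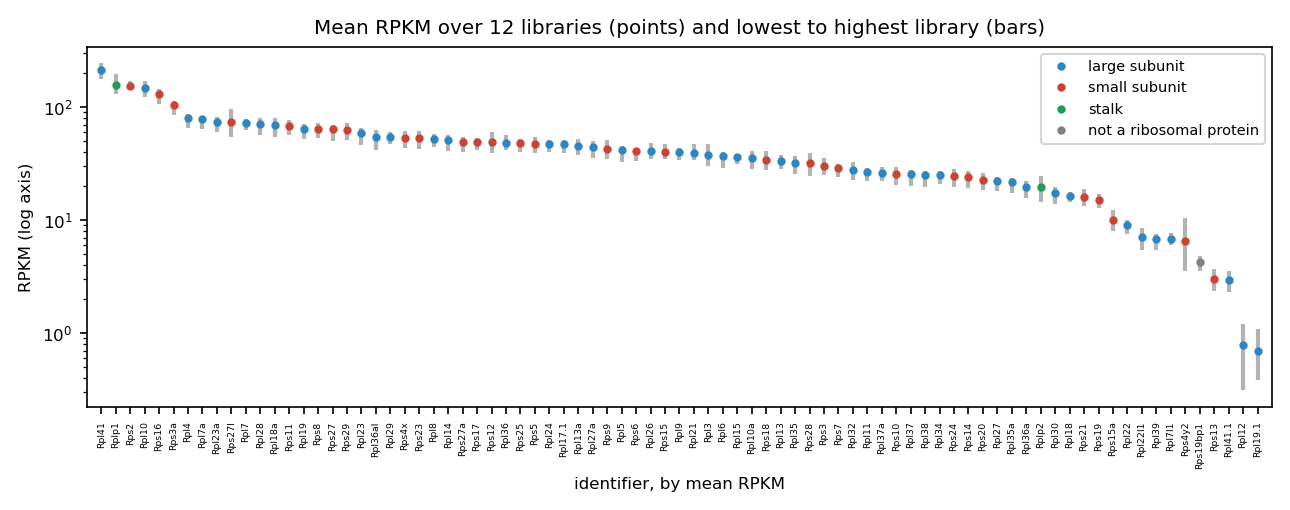
Mean RPKM over the 12 libraries (points, log axis) of the 81 tested entries in order of level, with bars from the lowest to the highest library; joined entries carry the name of their first gene. Most entries lie between 10 and 100 RPKM, from Rpl41 at 212 down to Rpl19.1 at 0.692, and Rps4y2 (3.51 to 10.3 RPKM) and Rpl12 (0.310 to 1.19 RPKM) have wide bars.

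The remaining 9 entries failed the filter of 0.5 RPKM in at least 3 libraries and never exceeded 0.652 RPKM in any library. They were Rpl17 (while Rpl17.1 had 47.2 RPKM), the paralogs Rpl39l and Rpl3l, and the 6 pseudogenes Rpl17-ps, Rpl18-rs8, Rpl18p, Rpl30-ps1, Rpl30-ps3 and Rpl32-ps. Rpl3l is known from muscle and Rpl39l from testis, and their means here were 0.02 and 0.0240 RPKM.

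The order of the entries was nearly the same in all livers, with a lowest Spearman correlation between any 2 libraries of 0.975 over the 81 entries, a description over genes within shared libraries. All 90 entries together took 1.75% to 2.08% of summed RPKM. The ratio of large to small subunit sums stayed between 1.52 and 1.57. Within groups, the median SD on the log2(RPKM + 1) scale was 0.0957 for the entries and 0.0988 for all 10568 tested genes. After each library was centred on its median gene it was 0.0707 for the entries and 0.0888 for all genes.

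**Figure D2:**
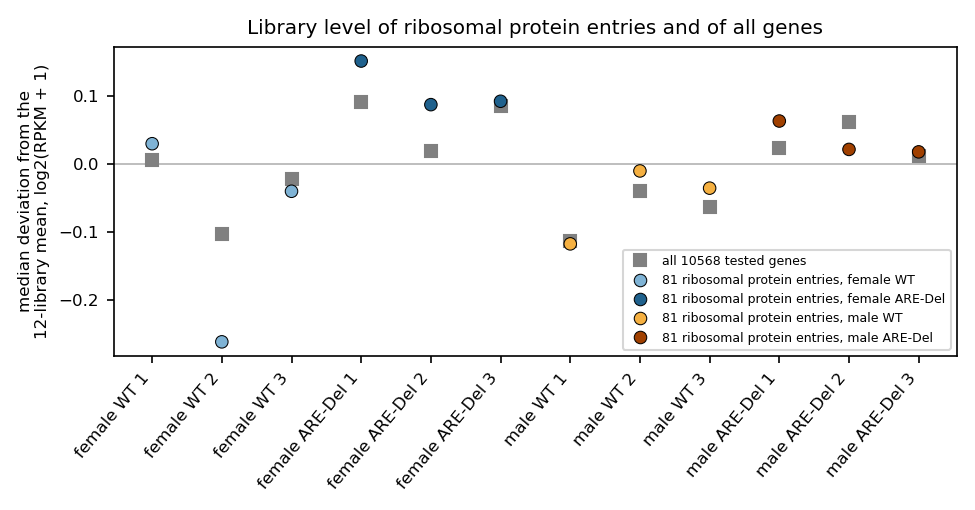
Median deviation from the 12-library mean, in log2(RPKM + 1), of the 81 tested entries (circles, coloured by group) and of all 10568 tested genes (grey squares) in each library. The 3 female ARE-Del libraries are highest for the entries (0.09 to 0.15) and female WT 2 is lowest at -0.26, below its own median gene at -0.10.

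Library female WT 2 had the lowest ribosomal protein level of the 12. Its entries lay at a median of -0.26 from the 12-library mean, against 0.03 in female WT 1 and -0.04 in female WT 3. Relative to the median gene of the same library the entries stood 3.50 higher there on the log2 scale, and 3.68 and 3.63 higher in the other female WT libraries. Female ARE-Del 1, 2 and 3 stood at 3.69, 3.68 and 3.59, male WT at 3.59, 3.63 and 3.62, and male ARE-Del at 3.61, 3.53 and 3.60. The female WT and ARE-Del libraries overlapped in this measure, with or without female WT 2.

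In females, entries of both subunits and of the stalk were among those that rose in ARE-Del liver. Of 81 tested entries, 30 rose and 1 fell at an adjusted p under 0.05 (limma, Benjamini-Hochberg over all tested genes), or 37.0% and 1.23%, while of all tested genes 25.8% rose and 5.53% fell. The median log2 change of the entries was 0.21 and that of all tested genes 0.09, so the entries changed 0.12 more than the median gene, and 73 of 81 lay above it. In whole liver, fewer cells of a type and less RNA per cell cannot be told apart. By subunit, 13 of 44 large-subunit entries, 13 of 29 small-subunit entries and both stalk proteins rose, with medians of 0.20, 0.24 and 0.39. All 3 ARE-Del libraries were above all 3 WT libraries for 53 entries (65.4%, against 34.9% of all tested genes) and below them for 1 (1.23%, against 8.66%).

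Much of this count depended on the scaling and on single libraries. When 1 library was left out, 12 to 45 entries passed in either direction. The fits of this kind named below all lowered the count, and the share of all genes at the highest count is not given here. As deposited, the values placed the median gene itself 0.09 higher in ARE-Del females. With each library centred on its median gene, the median change of all genes was -0.075, 14.4% of all genes rose and 25.1% fell, and 5 entries rose (Rps4y2, Rplp1, Rps12, Rpl3 and Rps15a) while 4 fell (Rps27l, Rps19bp1, Rpl7l1 and Rpl24). 6 entries passed in the same direction with both scalings. Without female WT 2, 11 entries rose and 1 fell (13.6% and 1.23%, against 21% and 6.86% of all tested genes), so the share of entries that rose was then below that of all genes, while the entries' median still exceeded that of the median gene by 0.07. Without female ARE-Del 2, 22 rose and none fell (27.2% and 0%, against 26.1% and 3.88%), with an excess of 0.10. Leaving out female ARE-Del 1 or 3 left 14 entries past the threshold each, of which 13 rose (16%, against 21.2% of all genes) without the former and 14 (17.3%, against 19.7%) without the latter. With centring and without female WT 2, 2 rose and 5 fell (2.47% and 6.17%, against 13.7% and 21.1%). With centring and without female ARE-Del 2, none rose and 3 fell (0% and 3.7%, against 12.8% and 20.1%).

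Markers of macrophages and lymphocytes also rose in ARE-Del females. Summed levels run over all matched genes of a list, and counts over those that passed the filter. In ARE-Del females, 10 of 11 tested Kupffer cell markers rose and their summed level went from 125 to 216 RPKM in WT to 612 to 730. All 7 tested monocyte and macrophage markers rose, from sums of 33.9 to 53.6 to sums of 298 to 320 RPKM. All 5 tested T cell markers (sums of 0.602 to 1.74 and 4.24 to 7.80 RPKM) and all 5 tested NK and cytotoxic markers (1.36 to 2.27 and 9.25 to 12.8) rose. Of 12 hepatocyte markers 3 rose and 1 fell, with sums of 38800 to 40100 and 46200 to 50500 RPKM, and 6 of 6 tested cell cycle genes rose (2 without female WT 2). With the deposited scaling, 2 of 8 tested endothelial, 4 of 8 stellate cell and 2 of 3 cholangiocyte markers rose. Of 3 tested markers each, 2 rose for B and plasma cells, 2 for neutrophils and none for erythroid cells. Of all tested genes 25.8% rose, and 21% without female WT 2. No matched marker of these lists was at 0 in all 12 libraries, and the part of these cells in the ribosomal protein levels was not tested.

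Transcript length was set beside the change because ribosomal protein mRNAs are short. Among tested entries with a GENCODE M21 length (77 of 81, median 711.5 bases), the median change in females exceeded that of the median gene by 0.12. In the 1772 other tested genes with a median transcript under 1000 bases it was -0.01 relative to the median gene.

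The stalk proteins were among the largest changes in females. Rplp1, an acidic protein of the stalk that recruits elongation factors to the ribosome, had 153, 131 and 141 RPKM in female WT and 193, 197 and 182.5 in female ARE-Del libraries. The ARE-Del livers all exceeded the WT livers, with means of 142 ± 11.3 and 191 ± 7.66 RPKM (SD, n = 3), and the log2 change was 0.43 ± 0.09 (SE, adjusted p = 0.00288, limma). In males the same gene had 134, 139 and 144 RPKM in WT and 168, 141 and 161 in ARE-Del libraries, overlapping groups with a change of 0.17 ± 0.09 (adjusted p = 0.206). Its partner Rplp2 had 20.2, 17.08 and 18.7 RPKM in female WT and 24.0, 23.1 and 24.7 in female ARE-Del libraries, without overlap. That change was 0.35 ± 0.10 (adjusted p = 0.0194) and was lost without female WT 2 (adjusted p = 0.0683) or female ARE-Del 3 (adjusted p = 0.0682, limma). Arbp, the entry for Rplp0 that anchors both proteins, lay outside the rule and was chosen for its role: it had 86.8, 69.2 and 78.2 RPKM in female WT and 99.9, 100.5 and 97.9 in female ARE-Del libraries. It rose by 0.35 (adjusted p = 0.00898, and 0.0584 with centring, limma), and the 3 stalk genes thus all passed the threshold in females with the deposited scaling.

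Among small-subunit proteins, Rps12 rose in both sexes. It had 47.3, 40.1 and 43.1 RPKM in female WT and 59.9, 59.3 and 55.7 in female ARE-Del libraries. Male libraries had 39.0, 43.7 and 42.8 RPKM (WT) and 53.9, 48.1 and 50.8 RPKM (ARE-Del). Every ARE-Del liver exceeded every WT liver of its sex, by 0.42 ± 0.08 in females (adjusted p = 0.00207) and 0.28 ± 0.08 in males (adjusted p = 0.0324, limma). The male call was lost with centring (0.12, adjusted p = 0.233) and without male WT 1 (adjusted p = 0.137), male WT 3 (adjusted p = 0.0658), male ARE-Del 1 (adjusted p = 0.112) or male ARE-Del 3 (adjusted p = 0.0773). Rps15a, a small-subunit protein, had 9.85, 7.94 and 8.98 RPKM in female WT and 11.9, 12.3 and 11.2 in female ARE-Del libraries. It rose by 0.37 ± 0.08 without overlap (adjusted p = 0.00276). In males the groups did not overlap either, at 8.61, 9.25 and 8.58 against 10.5, 10.1 and 10.1 RPKM, with a change of 0.19 ± 0.08 that missed the threshold (adjusted p = 0.091).

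Rpl3, a large-subunit protein close to the peptidyl transferase centre, had 40.9, 31.7 and 31.1 RPKM in female WT and 46.6, 44.8 and 46.7 in female ARE-Del libraries. Female WT 1 stood nearest to the ARE-Del livers, which all lay higher, and the change was 0.41 ± 0.10 (adjusted p = 0.0066). Male values were 29.8, 33.7 and 33.4 RPKM in WT and 39.1, 39.4 and 37.5 in ARE-Del libraries, with no overlap and a change of 0.25 ± 0.10 (adjusted p = 0.0855, limma). Rplp1, Rps12, Rpl3, Rps15a and Rps4y2 passed in females in each of the 12 fits that left out 1 library with the deposited scaling. With centring and without female ARE-Del 2, none of the 5 passed, at adjusted p values of 0.0551 (Rps12) to 0.102 (Rps15a).

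The other 24 entries that rose in females had changes of 0.19 (Rpl18) to 0.35 (Rps9). In each of them the ARE-Del libraries lay above the WT libraries, which adds no support, since the same libraries picked the entries. The 24 held 12 large-subunit and 11 small-subunit entries and the paralog Rpl22l1. Of these 24, 6 passed without female WT 2 (Rps9, Rps20, Rps21, Rps23, Rps29 and Rpl37), 15 without female ARE-Del 2, and none with centring. The very abundant Rpl41 rose from 198 ± 17.6 to 235 ± 11.7 RPKM (0.25 ± 0.09, adjusted p = 0.0486) and Rps16 from 117 ± 9.80 to 142 ± 2.72 RPKM (0.28 ± 0.08, adjusted p = 0.0229), while Rps2andSnora64 (0.11 ± 0.09, adjusted p = 0.364) and Rpl10andSnora70 (0.20 ± 0.09, adjusted p = 0.116) did not pass. Of the 7 joined entries, Rpl13aandSnord32aandSnord33andSnord34andRnu35a (0.27), Rpl18aandSnora68 (0.32) and Rps3andRnu15-b (0.26) passed. Without female ARE-Del 2, Rpl41, Rpl18aandSnora68 and Rpl18 were among those that lost their call (adjusted p = 0.115, 0.067 and 0.0819, limma). The joined entries Rps11andSnord35b (0.18) and Rpl39andC330007P06Rik (0.17) did not pass in females with the deposited scaling (adjusted p = 0.158 and 0.111, limma).

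At the low end in females stood Rps27l, which fell, and 3 entries that did not pass. Rpl7l1, a paralog of Rpl7 linked to ribosome assembly, had 7.72, 6.10 and 6.76 RPKM in WT and 6.33, 6.08 and 6.58 in ARE-Del libraries (-0.10 ± 0.08, adjusted p = 0.393). Rps19bp1 differed by -0.11 ± 0.08 (adjusted p = 0.339) and Rpl24, which bridges the subunits, by -0.05 ± 0.09 (adjusted p = 0.715). With each library centred on its median gene, these 3 fell, by 0.26, 0.27 and 0.21 (adjusted p = 0.00564, 0.00904 and 0.0205, limma).

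**Figure D3:**
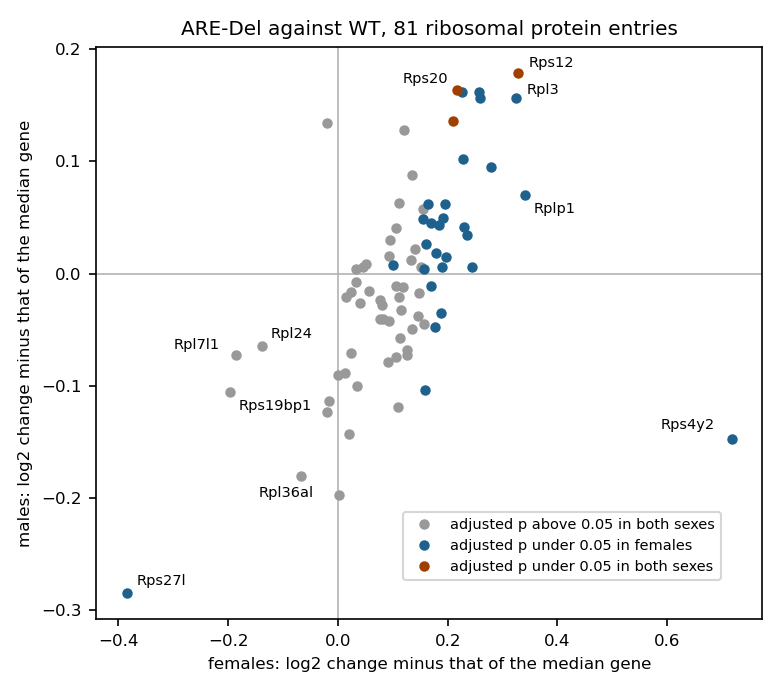
Log2 change in ARE-Del against WT minus the change of the median gene, in females (horizontal) and males (vertical), for the 81 tested entries, coloured by adjusted p. In females 73 entries lie above the median gene and in males 39; Rps27l is lowest in both sexes, and Rps4y2 is far to the right but below 0 in males.

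In males, 3 small-subunit genes rose and no entry fell, or 3.70% and 0%, against 19.5% and 2.04% of all tested genes. The median change of the entries was 0.09 and that of all tested genes 0.10, and 39 of 81 entries lay above the median gene. The entries' median relative to the median gene was -0.01 and changed sign between alternatives (-0.0592 to 0.0564). ARE-Del libraries were above all WT libraries for 32 entries (39.5%, against 36.1% of tested genes). Rps20 had 19.2, 20.5 and 21.8 RPKM in WT males and 25.5, 23.7 and 25.02 in ARE-Del males, and rose by 0.26 ± 0.08 (adjusted p = 0.0296). Rps21 had 13.3, 15.3 and 13.4 RPKM in WT and 17.3, 16.2 and 16.4 in ARE-Del libraries, and rose by 0.23 ± 0.07 (adjusted p = 0.0415, limma). Both genes separated the male groups without overlap, and both also rose in females, by 0.31 and 0.30. In males neither passed with centring, Rps20 lost its call without male WT 1, male WT 2, male ARE-Del 1 or male ARE-Del 3, and Rps21 lost it in 7 of the 12 fits that left out 1 library.

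Changes of like size did not pass in males for Rpl22l1 (0.26 ± 0.10, adjusted p = 0.0789), Rps9 (0.26 ± 0.09, adjusted p = 0.0584) and Rplp2 (0.25 ± 0.10, adjusted p = 0.0905). With centring, 8.43% of all genes rose and 12.7% fell in males, and of the entries none rose while Rps27l and Rpl36al fell (-0.34, adjusted p = 0.0121, and -0.24, adjusted p = 0.0485, limma). No entry passed without male WT 1, without male ARE-Del 1 or without male ARE-Del 3, 1 passed without male WT 3, and 6 passed without female WT 2, which enters the estimate of the spread. The share of all tested genes in these fits is not given here, so the counts do not separate a shift of the entries from one of all genes. Over all matched genes of each list, in ARE-Del males the Kupffer cell markers summed to 339 to 413 RPKM against 87.9 to 144 in WT (10 of 11 rose), and the monocyte and macrophage markers to 151 to 189 against 22.9 to 41 (6 of 7 rose). Of the 12 hepatocyte markers 6 rose, with sums of 28800 to 37700 RPKM against 27200 to 28900. Their part in the male values was not tested.

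The female change minus the male change had a median of 0.11 over the entries and of 0.00 over all tested genes, and it was positive for 75 of 81 entries. No entry passed the test of this difference at an adjusted p under 0.05 in limma, and 1 entry had an unadjusted p under 0.05; of all tested genes 0.435% passed as higher and 0.132% as lower. The excess over the median gene was 0.06 without female WT 2, the lowest of the fits that left out 1 library, and 0.17 under quantile normalization. The largest differences were those of Rps4y2 (0.86 ± 0.24, adjusted p = 0.139), Rplp1 (0.26 ± 0.13, adjusted p = 0.466) and Rpl41 (0.25 ± 0.12, adjusted p = 0.474). At the other end lay Rpl12 (-0.16 ± 0.23), Rpl7l1 (-0.12 ± 0.11) and Rps27l (-0.11 ± 0.13), with adjusted p values of 0.802 to 0.885. The median SE of such a difference was 0.124, so differences of the size of the median were not detectable in single entries at this number of libraries.

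Rps4y2 had the largest change in females. RefSeq (GRCm38.p6) lists this entry under the symbol Rps4l as a transcribed pseudogene, a copy of the X-linked Rps4x, so reads may be split between both. It had 4.42, 4.58 and 3.51 RPKM in female WT and 6.88, 10.3 and 7.17 in female ARE-Del libraries. Male libraries had 8.09, 5.26 and 8.16 RPKM (WT) and 7.76, 6.05 and 6.62 RPKM (ARE-Del). The 3 female WT livers were the lowest of the 12, and female ARE-Del 2, the library without Xist, was the highest. The change in females was 0.81 ± 0.17 (adjusted p = 0.00299) and 0.64 without female ARE-Del 2 (adjusted p = 0.0117, limma). With centring and without that library it was 0.45 (adjusted p = 0.0824). Rps4x itself had 50.6 ± 6.69 and 59.7 ± 1.96 RPKM in female WT and ARE-Del livers (0.24 ± 0.09, adjusted p = 0.0712).

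**Figure D4:**
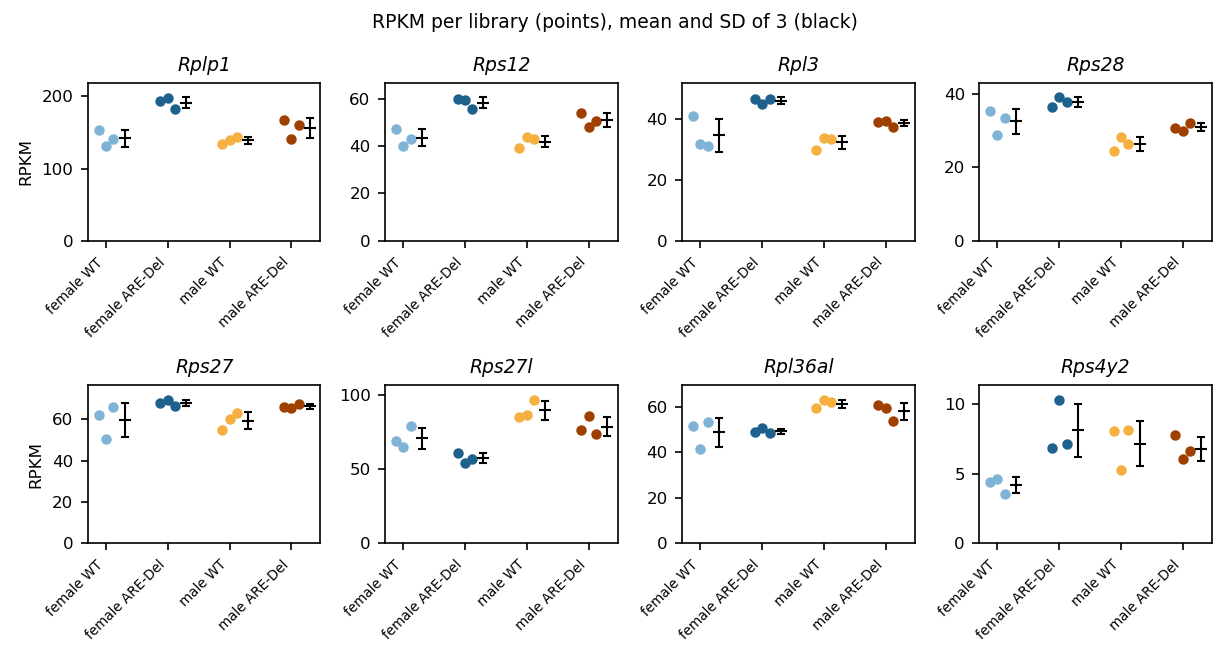
RPKM of 8 members in each library (coloured points by group) with the mean and SD of 3 libraries (black). Rplp1, Rps12 and Rpl3 are highest in female ARE-Del livers, Rps27l is lowest there at 54.4 to 60.7 RPKM while Rps27 is not, and Rpl36al and Rps27l are higher in male than in female livers of either genotype.

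Rps27l was the 1 entry that fell in females. This paralog of the small-subunit zinc finger protein Rps27 is known as a target of p53. It had 68.9, 64.9 and 78.8 RPKM in female WT and 60.7, 54.4 and 57.1 in female ARE-Del libraries. Male libraries had 85.3, 86.6 and 97.0 RPKM (WT) and 76.4, 85.7 and 73.8 RPKM (ARE-Del). Female ARE-Del livers were below all female WT livers, and male groups overlapped through male ARE-Del 2. The change was -0.30 ± 0.10 in females (adjusted p = 0.0329) and -0.19 ± 0.10 in males (adjusted p = 0.185, limma). The female call was lost without female WT 1 (adjusted p = 0.0537), female WT 3 (adjusted p = 0.127), female ARE-Del 2 (adjusted p = 0.0926) or female ARE-Del 3 (adjusted p = 0.0859), and with centring it was -0.46 (adjusted p = 0.00106). Rps27 had 62.0, 50.4 and 66.2 RPKM in female WT and 68.1, 69.5 and 66.7 in female ARE-Del libraries, a change of 0.20 ± 0.10 (adjusted p = 0.137).

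The balance within such a pair does not depend on how libraries are scaled, and was therefore compared as the paralog's share of the pair's RPKM. This comparison was added after the values were seen. Rps27l made up 52.6%, 56.3% and 54.4% of the pair in female WT, and 47.1%, 43.9% and 46.1% in female ARE-Del livers. In males it made up 60.8%, 59.1% and 60.6% in WT, and 53.7%, 56.7% and 52.2% in ARE-Del livers. The share was thus lower in ARE-Del than in WT livers of each sex and lower in females than in males of each genotype, without overlap in any of these 4 comparisons. The log2 ratio of Rps27l to Rps27 was 0.428 lower in ARE-Del within sex and 0.415 lower in females within genotype. Both gave p = 0.005 in a 2-sided exact permutation test within strata, the smallest p that its 400 arrangements allow, and an adjusted p of 0.0167 over 10 such tests. Leaving out each library in turn gave log2 ratios of -0.465 to -0.399 for genotype and of -0.444 to -0.378 for sex, all still passing.

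**Figure D5:**
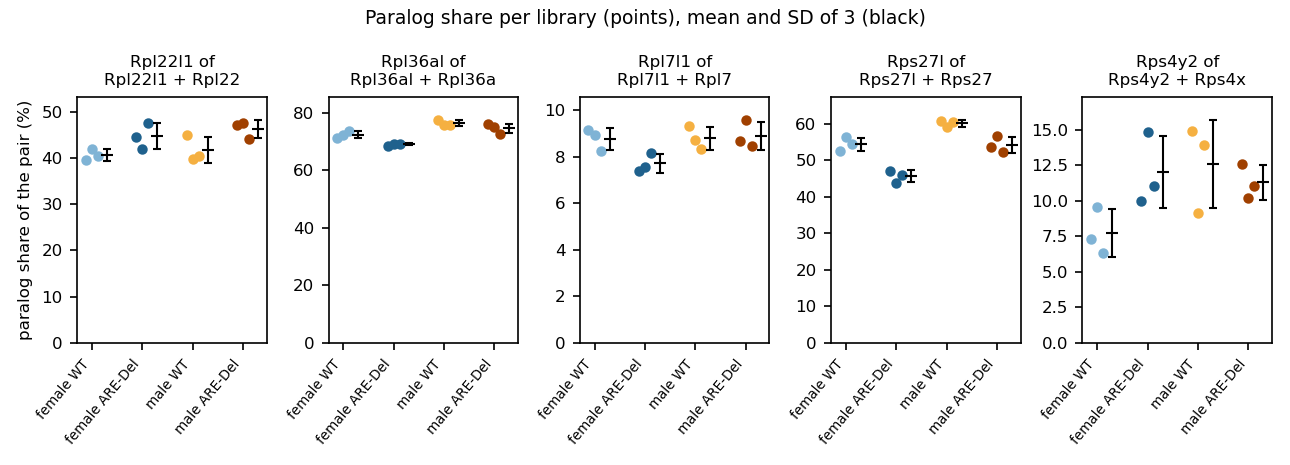
Share of each paralog in the summed RPKM of the paralog and its parent gene, per library (points), with the mean and SD of 3 libraries (black); each panel has its own axis from 0. The Rps27l share is 45.7% in female ARE-Del, 54.4% in female WT, 54.2% in male ARE-Del and 60.2% in male WT livers on average.

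Rpl36al, a paralog of the X-linked large-subunit gene Rpl36a, was the other entry whose balance differed by sex. It made up 71.2%, 72.5% and 73.8% of the pair in female WT and 68.7%, 69.3% and 69.3% in female ARE-Del livers. Male livers gave 77.7%, 76.0% and 75.7% (WT) and 76.1%, 75.1% and 72.8% (ARE-Del). The log2 ratio was 0.351 lower in females (exact permutation p = 0.005, adjusted p = 0.0167). It was 0.188 lower in ARE-Del livers (exact permutation p = 0.015, adjusted p = 0.0375), and this call was lost in 7 of 12 fits that left out 1 library, with adjusted p values of 0.05 to 0.0625. The female and male shares did not overlap in WT or in ARE-Del livers, and male WT and male ARE-Del livers overlapped.

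Rpl22l1, the paralog of the RNA-binding large-subunit protein Rpl22, moved the other way. It made up 39.7%, 42.1% and 40.5% of the pair in female WT and 44.6%, 42.1% and 47.6% in female ARE-Del livers. Male livers gave 45.1%, 39.9% and 40.5% (WT) and 47.3%, 47.7% and 44.1% (ARE-Del). Its log2 ratio was 0.252 higher in ARE-Del livers (exact permutation p = 0.02, adjusted p = 0.04), a call lost in 9 of 12 fits that left out 1 library, and the groups touched in females and overlapped in males. Between the sexes it differed by -0.08 (p = 0.33 in the exact permutation test). The ratio of Rpl7l1 to Rpl7 differed by -0.09 for genotype and -0.11 for sex, and that of Rps4y2 to Rps4x by 0.27 and -0.35, with adjusted p values of 0.167 to 0.294 in the exact permutation test.

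Between female and male WT livers, no entry was higher and 3 were lower in females, or 0% and 3.70%, against 6.72% higher and 3.04% lower of all tested genes. All 3 were paralogs or copies of a ribosomal protein gene: Rps4y2 (-0.64 ± 0.17, adjusted p = 0.0319), Rps27l (-0.34 ± 0.10, adjusted p = 0.0443) and Rpl36al (-0.34 ± 0.09, adjusted p = 0.0439, limma). Rpl36al had 51.5, 41.4 and 53.3 RPKM in female WT and 59.5, 62.9 and 62.0 in male WT libraries. The female libraries lay below the male ones for all 3 genes. These calls sat close to the threshold: leaving out 1 library lost that of Rpl36al in 10 of 12 fits, that of Rps27l in 9 (without female WT 3, female ARE-Del 2 or male ARE-Del 2 it passed) and that of Rps4y2 without female WT 1, female WT 3, male WT 1 or male WT 3.

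Over all entries the median difference of WT females from WT males was 0.07 below that of the median gene, and 0.01 below it without female WT 2. With centring, 6.02% of all genes were higher and 6.76% lower in WT females, and of the entries Rps28 was higher while Rpl35a, Rpl36al, Rpl38, Rps27l and Rps4y2 were lower. Rps28, a small-subunit protein, had 35.4, 28.8 and 33.4 RPKM in female WT and 24.4, 28.2 and 26.4 in male WT libraries, a difference of 0.29 ± 0.09 with the deposited scaling (adjusted p = 0.0508). This comparison uses the WT libraries of both genotype comparisons, so its values are not independent of them.

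Between female and male ARE-Del livers, 4 entries were higher in females (Rplp1, Rplp2, Rps28 and Rpl19.1) and Rps27l was lower, or 4.94% and 1.23%, against 16.4% and 6.02% of all tested genes. Rplp1 differed by 0.29 ± 0.09 (adjusted p = 0.0372), Rplp2 by 0.31 ± 0.10 (adjusted p = 0.0453) and Rps28 by 0.28 ± 0.09 (adjusted p = 0.0366). Rps28 had 36.3, 39.0 and 37.7 RPKM in female and 30.8, 30.0 and 32.0 in male ARE-Del libraries. Female ARE-Del libraries exceeded the male ones without overlap for these 3 genes, and for Rpl19.1, near the filter at 0.642, 1.096 and 0.870 against 0.703, 0.483 and 0.383 RPKM, they overlapped. Without female ARE-Del 2 or 3, or male ARE-Del 2 or 3, Rps27l alone passed, and without female ARE-Del 1 or male WT 3, 2 entries did. Without female WT 2, 8 entries passed. The share of all tested genes in these fits is not given here, so whether the entries or all genes shifted is not shown. Of 11 Kupffer cell markers 6 were also higher in ARE-Del females than in ARE-Del males, and their part here was not tested.

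Rps27l differed by -0.45 ± 0.10 between ARE-Del females and males (adjusted p = 0.00567) and passed in all 23 alternative fits. With centring, 13.4% of all genes were higher and 13.6% lower in ARE-Del females; Rplp2 and Rps28 were higher, and Rps27l, Rpl36al, Rpl24, Rpl7l1, Rps19bp1 and Rpl35a were lower. Quantile normalization gave 2 entries higher and 4 lower, and the share of all genes under it is not given here. This comparison shares its libraries with the genotype comparisons.

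Among ribosomal proteins that the rule missed, Rpsa and Gnb2l1 rose in females. Rpsa, a small-subunit protein also known as a laminin receptor, had 69.7, 54.4 and 60.2 RPKM in female WT and 82.5, 72.1 and 72.7 in female ARE-Del libraries (0.30 ± 0.10, adjusted p = 0.037). Gnb2l1, the signalling scaffold Rack1 on the small subunit, had 29.9, 21.6 and 25.9 against 31.4, 31.3 and 31.1 RPKM (0.28 ± 0.10, adjusted p = 0.0486, limma). The ARE-Del livers were higher without overlap for both. Fau, a fusion with a ubiquitin-like protein, did not pass (0.16 ± 0.08, adjusted p = 0.153), and none of these 3 genes passed in males, where changes were 0.07 to 0.14. The joined entry Npas2andRpl31 rose in females (0.24, adjusted p = 0.0209, limma), and Ikzf4andRps26 differed by 0.12 (adjusted p = 0.272). Without female WT 2 the calls of Rpsa, Gnb2l1 and Npas2andRpl31 were lost (adjusted p = 0.124, 0.155 and 0.0643, limma), and without female ARE-Del 2 that of Gnb2l1 was (adjusted p = 0.0894). With centring none of the 3 passed (adjusted p = 0.192 to 0.259).

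Other genes of ribosome production and use were set beside the members by counts, to be read against all tested genes, of which 25.8% rose and 5.53% fell in females and 19.5% rose and 2.04% fell in males. In females, 21% of all tested genes rose and 6.86% fell without female WT 2. With centring 14.4% rose and 25.1% fell, and with centring and without female ARE-Del 2, 12.8% and 20.1%. Of 39 tested ribosome biogenesis factors, 10 rose in females and 11 in males and none fell, with medians of 0.14 and 0.15; the female share was near that of all genes. Without female WT 2, 2 of them rose in females, and with centring 2 rose and 6 fell. Noc4l, a factor for the small subunit, rose in both sexes (0.45 ± 0.09, adjusted p = 0.00182, and 0.30 ± 0.09, adjusted p = 0.027). Gtpbp4, a GTPase of large-subunit assembly, passed in females (0.50 ± 0.13, adjusted p = 0.013, and 0.0517 without female WT 2), and Ddx21, a nucleolar helicase, in males (0.38 ± 0.12, adjusted p = 0.0347, limma). Of 13 tested RNA polymerase I genes, 5 rose in females and 2 in males, among them Taf1b (0.41 ± 0.08 in females), Rpo1-4, the largest subunit (0.33 and 0.29 ± 0.06), and Znrd1 (0.29 ± 0.08 in males). Without female WT 2, 4 of them rose in females, and with centring 2 rose and 1 fell. With centring and without female ARE-Del 2, none rose and 1 fell.

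Few translation factors passed the threshold with the deposited scaling. Of 33 tested initiation factors 2 rose in females, Pabpc1, which binds the poly(A) tail (0.41 ± 0.08, adjusted p = 0.00236), and Eif6, which keeps large subunits free (0.24 ± 0.08, adjusted p = 0.043, limma), and none passed in males; medians were 0.05 in both. With centring, 1 initiation factor rose and 11 fell in females, where 14.4% of all tested genes rose and 25.1% fell. Of 8 elongation factors, Eef1b2 rose in females (0.23 ± 0.07, adjusted p = 0.0302), and none passed in males. The call of Eif6 was lost without female WT 2 or female ARE-Del 2 (adjusted p = 0.144 and 0.11), and that of Eef1b2 without female WT 2 (adjusted p = 0.0965, limma). Among 13 other mRNAs known to start with a pyrimidine tract, Hnrpa1 (0.60 ± 0.09 and, in males, 0.34 ± 0.09) and Pabpc1 rose, with medians of 0.13 in females and 0.06 in males. The lists overlap: Pabpc1, Eef1a1, Eef2, Eif4b, Eif3e, Eif3f and Eif3h were also counted as translation factors, and Npm1 as a biogenesis factor. With centring, 2 of the 13 rose and 3 fell in females. With centring and without female WT 2, 2 rose and 4 fell, against 13.7% and 21.1% of all tested genes.

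Among 19 tested mTOR pathway genes, 4 rose and 1 fell in females and 2 rose in males, with medians of 0.05 and 0.09; of all tested genes 25.8% and 19.5% rose. With centring, 1 rose and 7 fell in females, where 14.4% of all tested genes rose and 25.1% fell. Frap1, the kinase mTOR itself, rose from 2.72 ± 0.23 to 4.72 ± 0.59 RPKM in females (0.62 ± 0.08, adjusted p = 0.000112), and Eif4ebp3, a repressor of cap-dependent translation, rose in both sexes (0.37 ± 0.12 and 0.56 ± 0.12), though its female call was lost without female WT 2 or female ARE-Del 2 (adjusted p = 0.0939 and 0.0903, limma). Sesn1, an inhibitor of mTOR signalling, also rose in both (0.34 and 0.27 ± 0.08). The 1 gene that fell in females, named after its values were seen, was Depdc6, or Deptor, an inhibitor of mTOR (-0.25 ± 0.08, adjusted p = 0.0343, and 0.123 without female ARE-Del 2, limma); in males it differed by 0.03. Of 7 tested p53 targets, 4 rose in females (2 without female WT 2 or with centring) and 3 in males, medians 0.27 and 0.15, led by Cdkn1a, a cell cycle inhibitor (1.12 ± 0.21 and 1.68 ± 0.21), Trp53inp1 (0.71 ± 0.17 in males) and Phlda3 (0.56 and 0.18 ± 0.06). Rps27l, itself such a target, had a change of -0.30 in females, as given above.

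Mitochondrial ribosomal proteins, which build the ribosome of the organelle, lay mostly below the median gene. Of 74 tested entries, Mrpl54 rose (0.38 ± 0.11, adjusted p = 0.0178) and Mrpl34 fell (-0.33 ± 0.10, adjusted p = 0.0229) in females, and Mrpl27 rose in males (0.25 ± 0.07, adjusted p = 0.021, limma). The call of Mrpl54 was lost without female WT 2 (adjusted p = 0.0636, limma), and with centring none of the 74 rose and 47 fell in females. Of all tested genes in females, 25.8% rose and 5.53% fell with the deposited scaling, and 14.4% and 25.1% with centring. In males 19.5% rose and 2.04% fell with the deposited scaling. Their median changes were -0.04 in females and -0.01 in males, where all tested genes had 0.09 and 0.10, and 9 and 10 of 74 lay above the median gene. The cytosolic entries had 0.21 and 0.09, and 73 and 39 of 81 lay above it. The difference between both sets of genes was not tested.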

How the data were processed

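Liver RNA of 12 libraries was prepared with an Illumina TruSeq RNA kit, per the labels' protocols. The authors made the deposited RPKM table with Trimmomatic 0.30, TopHat2 2.0.8, Partek and GenomeStudio 6.6 on mm9, per the submitters' processing notes; how reads were counted is not given in the sources used here. The values were used at the deposited scaling, as log2(RPKM + 1). Genes that reached an RPKM of 0.5 in 3 or more libraries (10568 of 19852) were fitted with limma 3.58.1 in R 4.3.3 (eBayes with trend) as 4 group means over 12 libraries. P-values were adjusted by Benjamini-Hochberg within each of 5 comparisons at 0.05. A gene can pass the filter through 1 group alone, and the scale understates changes of low genes. The depth of the libraries is known only as relative depth, so no counting error is given. Errors are SE for log2 changes and SD for RPKM.

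The members and lists were chosen with earlier results of these data known. Genes were named by rule: the 6 largest rises and falls in each genotype comparison and the 3 largest each way in the others, called genes first, the 5 highest levels, paralogs with their parents, joined entries, stalk proteins, ribosomal proteins outside the name rule, and up to 3 called genes of each pathway list. Arbp and the 2 joined entries outside the rule, the entries called after centring, and the paralog ratios were added after values were seen. List names were matched by identifier or RefSeq synonym. A gene of the lists is not reported here. Replicate numbers did not pair the libraries: of 18 same-numbered pairs, 5 had a correlation of residuals over 0.1 (-0.291 to 0.245). The script was tested on simulated data. Figures were drawn with matplotlib 3.10.9.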

Additional observations from a re-analysis of the deposited data

How the results depend on the processing

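Counts of entries past the threshold depended on scaling and single libraries, and so did the share of all tested genes. In females 25.8% of all genes rose and 5.53% fell as deposited, and 14.4% and 25.1% with centring. In ARE-Del mice 16.4% were higher and 6.02% lower in females as deposited, and 13.4% and 13.6% with centring. For settings whose share is not given in the text, counts do not separate a shift of the entries from one of all genes. In females, 31 entries passed (30 higher), and 9 passed with centring on the median gene or median-of-ratios scaling, 12 when only the 2 groups compared were fitted, and 12 to 45 when 1 library was left out. Combined with centring, 7 passed without female WT 2 and 3 without female ARE-Del 2, alternatives chosen after seeing the data. In males, 3 passed, and 1 under quantile normalization and 0 to 6 when 1 library was left out. Between WT females and males 3 passed, and 6 with centring (6 also without female ARE-Del 2), 9 with median-of-ratios scaling, 13 with quantile normalization, 0 with no filter, 1 with only the 2 groups, 0 without joined entries and paralogs, and 0 to 2 when 1 library was left out. In ARE-Del mice 5 passed, and 8 with centring, 3 with centring and without female ARE-Del 2, 3 with no filter, 3 with only the 2 groups, and 1 to 8 when 1 library was left out. The test of the difference between the sexes called 0 entries in all 23 alternatives. The cause of these shifts was not tested. With the replicate block, 23 entries passed in females, 1 in males, 0 in WT and 1 in ARE-Del mice; of the 12 libraries, 2 correlated best with their own number. The entries' median relative to the median gene stayed positive in females (0.0653 to 0.206, the latter with quantile normalization), where males had 0.0564 with no filter and the interaction 0.172 with quantile normalization. No call of a named gene changed direction in these alternatives.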
